A study of Gallus gallus with 2 samples.

Results

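The expression of 10 genes of the extracellular matrix was followed in the hearts of chicken (Gallus gallus) embryos: HAS2, VCAN, HAPLN1 and CD44 of the hyaluronan system, FN1, POSTN and SPP1 among the glycoproteins, and FBLN1, FBN1 and LOX of the elastic fibre system. They were taken by gene name from the deposited expression tables, which held 16737 genes after rows of one name were summed. For 8 of the 10 the name was spelled as above, FN1 was listed as fn1, and POSTN was listed as OSF-2, a synonym that RefSeq gives for it. The study exposed fertilized brown leg horn eggs, incubated for 24 h at 37 °C, to a single 20 µl dose through the air sac. The vehicle was 1X PBS, and the treatment was spermine NONOate at 10 µM, a donor that releases nitric oxide (NO) and leaves the polyamine spermine behind. Hearts were removed at 45 h, a time that the labels do not clearly tie to the start of incubation or to the dose. Each treatment was 1 pool of 10 hearts sequenced as 1 library, called the vehicle pool and the NO pool below, so no value has a replicate and no comparison has a test. No group received spermine alone, so NO and spermine cannot be told apart.

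The early embryonic heart is a tube that loops. Its muscle layer and inner endocardial layer are held apart by cardiac jelly, a hydrated matrix secreted largely by the muscle. Its scaffold is hyaluronan, a sugar polymer spun out at the cell surface by hyaluronan synthases; versican, a large chondroitin sulphate proteoglycan, binds along the polymer, and link protein locks the complex. Fibronectin, fibulins and fibrillins form fibres within and around this gel, and lysyl oxidase cross-links elastin and collagen. In mice, loss of Has2 or of versican removes the jelly and arrests the heart before its cushions form.

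Values are FPKM, the authors' fragments per kilobase of transcript and per unit of library size, which can be set side by side between genes of 1 library. Each comes with a deposited 95% interval that covers estimation within 1 library and nothing of the difference between pools. Each difference is the log2 of (FPKM + 1) in the NO pool over that in the vehicle pool, and a gene was counted as measured at a mean of at least 1 FPKM, which 10824 genes reached. Folds between the pools are on the same FPKM + 1 scale, so for scarce genes they are smaller than the ratio of the printed FPKM. Ratios of 1 gene to another within a library are of plain FPKM. The interval widths imply at least 18246222 fragments in the vehicle pool and 28767956 in the NO pool. The median measured gene lay at −0.11, and differences are given without shifting by that amount.

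The 2 pools differed in the marker genes of several tissues. Markers were counted at 1.5-fold, a limit that 9.59% of all measured genes passed upward and 22.4% downward. Some listed markers were not found by name, among them 7 of 18 neural, 6 of 18 endoderm and 4 of 15 blood genes, so their levels are unknown. TNNT2, ACTC1 and MYL2, defining genes of heart muscle, were at 604, 448 and 535 FPKM in the vehicle pool and at 3189, 2834 and 4343 FPKM in the NO pool, so both pools held heart muscle RNA. The 13 matched muscle markers summed to 2959 FPKM in the vehicle pool and 17598 in the NO pool, and 11 of 13 were higher by 1.5-fold or more. Endothelial and endocardial markers summed to 232 and 345 FPKM, with 8 of 16 higher and 2 lower. Markers of cushion and pharyngeal mesenchyme and neural crest summed to 412 and 96.1 FPKM, with 14 of 16 lower by 1.5-fold or more and 1 higher. Epicardial markers summed to 81.1 and 57.1 FPKM (5 of 8 lower, and UPK3B listed at 0 in the NO pool). Neural markers summed to 369 and 173 FPKM (7 of 10 lower, and ZIC1 listed at 0 in the NO pool), endoderm markers to 1319 and 342 FPKM (9 of 10 lower), and blood markers to 270 and 3444 FPKM (7 of 8 higher, and HBZ listed at 0 in the vehicle pool). In pooled tissue, fewer cells of a type and less RNA per cell cannot be told apart, and the part of these shifts in the matrix values was not tested.

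Of the 10 matrix genes 9 were measured. In the NO pool LOX, VCAN and FN1 were higher by 1.5-fold or more, SPP1, FBLN1 and HAPLN1 were lower by as much, and HAS2, FBN1 and POSTN were within 1.5-fold, all 3 on the higher side, so 6 of the 9 differences were above 0 and 3 below. The 3 of 9 higher (33.3%) stand beside 9.59% of all measured genes, and the 3 of 9 lower (33.3%) beside 22.4%. The counts were 4 higher and 2 lower with upper quartile scaling, with trimmed mean scaling and with the median gene set to 0. They were 2 and 3 with both libraries brought to the same summed FPKM, 3 and 2 with a pseudocount of 5, and 4 and 3 with a pseudocount of 0.1. Over all genes the counts were 1432 and 1932 with upper quartile scaling and 740 and 2971 with the same summed FPKM, against 1038 and 2420. At a limit of 2-fold, LOX was the 1 gene higher, where 3.65% of all genes were, and SPP1 and FBLN1 were the 2 lower, where 10.3% were; VCAN lay just inside that limit at 1.99-fold. The median of the 9 was 0.37. The deposited intervals of all 9 were apart between the libraries, as were those of 70.9% of all measured genes, so intervals apart say little here. Without FN1 and POSTN, matched by ignoring case and by a synonym, 2 of 7 were higher and 3 of 7 lower.

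**Figure D1:**
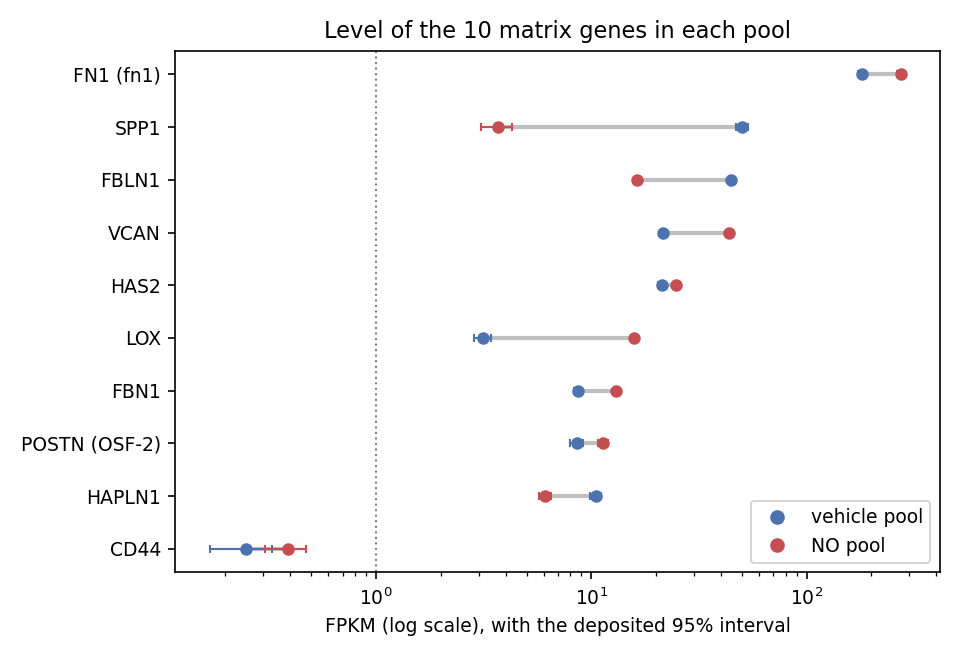
Level of each of the 10 matrix genes, as FPKM on a log scale, in the vehicle pool (blue) and the NO pool (red), with the deposited 95% interval as bars and a dotted line at 1 FPKM. SPP1 and LOX are the genes whose 2 points lie farthest apart, in opposite directions, and CD44 lies under 1 FPKM in both libraries.

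The count of all genes in each direction depends on the scaling between libraries. As deposited, 1038 genes passed 1.5-fold upward and 2420 downward, so 30.02% of the calls were higher. This share was 42.6% after upper quartile scaling (1432 higher, 1932 lower), 41.8% after trimmed mean scaling (1401 and 1953), 40.7% with the median gene set to 0 (1344 and 1961) and 19.9% with both libraries brought to the same summed FPKM (740 and 2971). The directions of the 9 measured members were the same under every one of these. The largest of these shifts was 0.15 on the log2 scale, less than the smallest member difference, 0.22 for HAS2, so no direction could turn.

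**Figure D2:**
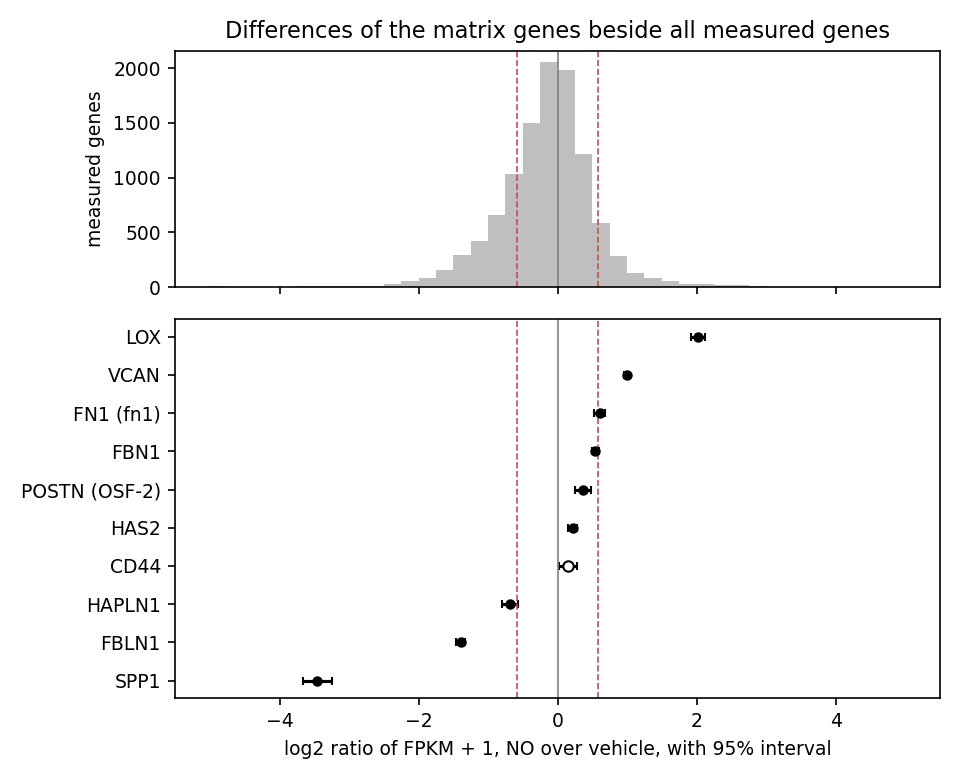
Upper panel, number of measured genes by log2 ratio of FPKM + 1 (NO over vehicle). Lower panel, the 10 matrix genes on the same axis with 95% intervals; dashed lines mark 1.5-fold, and the open circle is CD44, which was not measured by the 1 FPKM limit. LOX at 2.02 and SPP1 at −3.46 lie in the thin ends of the distribution, and HAS2 at 0.22 lies within its bulk.

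HAS2, the synthase that makes the hyaluronan of the cardiac jelly (ENSGALG00000016394, chromosome 2, 136937865 to 136952782 of the galGal4 build, as for all positions here), stood at 21.2 FPKM (95% interval 20.4 to 22.0) in the vehicle pool and 24.8 FPKM (24.1 to 25.6) in the NO pool. The NO pool was slightly higher, by 0.22 on the log2 scale (0.15 to 0.28), which is 1.16-fold. HAS3, the other synthase found, was at 0.831 and 0.432 FPKM. HAS2 thus made up 96.2% of the summed level of HAS2 and HAS3 in the vehicle pool and 98.3% in the NO pool. HAS1 was not found by name, so its level is unknown.

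Genes that supply, cut or bind hyaluronan differed in both directions. Of 17 measured genes of hyaluronan synthesis, cleavage and binding other than the members, 1 was at least 1.5-fold higher (5.88%, beside 9.59% of all measured genes) and 4 were lower (23.5%, beside 22.4%), with a median log2 difference of −0.24. UGP2, which makes the UDP-glucose from which one of the 2 sugar precursors derives, was at 29.9 and 45.4 FPKM (vehicle and NO, the order kept throughout), 1.502-fold higher. UGDH, which oxidises that sugar to UDP-glucuronate, was at 44.5 and 42.5 FPKM with overlapping intervals. UAP1, which makes the other precursor, UDP-N-acetylglucosamine, was at 31.2 and 12.9 FPKM, 2.32-fold lower. The log2 interval of UGP2 (0.50 to 0.67) spans the 1.5-fold limit. With both libraries brought to the same summed FPKM or with a pseudocount of 5, 0 genes of this list were higher.

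Hyaluronidases, which cut the polymer, were lower for HYAL2 and HYAL3. HYAL2, a hyaluronidase of the cell surface, was at 49.4 and 24.6 FPKM, 1.97-fold lower, and HYAL3 at 9.15 and 4.17 FPKM, 1.96-fold lower. HYAL1, the lysosomal enzyme, was at 26.0 and 27.3 FPKM, with a log2 difference of 0.07 (−0.04 to 0.18). Set against HYAL2 within each library, which removes any scaling between libraries, HAS2 stood at 0.430 of its level in the vehicle pool (0.405 to 0.456) and at 1.01 of it in the NO pool (0.955 to 1.07). The ratio of HAS2 to HYAL2 was thus 2.35 times as high in the NO pool (2.17 to 2.55). HAS2 was 1.16-fold higher and HYAL2 1.97-fold lower, so most of this came from HYAL2. HYAL1 was 1.05-fold higher, so HAS2 showed no such shift against it.

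VCAN, versican (ENSGALG00000015624, chromosome Z, 62474981 to 62580840), was at 21.5 FPKM (21.0 to 21.9) in the vehicle pool and 43.7 FPKM (43.2 to 44.2) in the NO pool. Its log2 difference of 0.99 (0.96 to 1.02) placed it above 96.3% of measured genes, with 10326 and 30721 implied fragments behind the values. The other proteoglycans of its family that were found were scarce: aggrecan (ACAN) was at 0.209 and 0.294 FPKM, and BCAN was at 1.16 and 0.548 FPKM. NCAN, of the same family, was not found by name, so its level is unknown. Versican made up 94.0% of the summed level of VCAN, ACAN and BCAN in the vehicle pool and 98.1% in the NO pool. Its splice forms, which differ in how many chondroitin chains they carry, were not analysed here.

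HAPLN1, the link protein that fastens versican to hyaluronan (ENSGALG00000015627, chromosome Z, 62344745 to 62440821), went the other way. It was at 10.5 FPKM (9.83 to 11.1) in the vehicle pool and 6.11 FPKM (5.72 to 6.50) in the NO pool, 1.61-fold lower, with a log2 difference of −0.69 (−0.80 to −0.58). This call ended under 4 settings, at −0.56 with upper quartile scaling, −0.57 with trimmed mean scaling, −0.58 with the median gene set to 0 and −0.48 with a pseudocount of 5. Within a library, where scaling has no part, versican was 2.05 times the level of HAPLN1 in the vehicle pool (1.92 to 2.19) and 7.16 times its level in the NO pool (6.70 to 7.64).

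VCAN and HAPLN1 are next to each other on chromosome Z, 34159 bases apart with no listed gene between them. The flanking genes were nearer to equal: XRCC4 on the side of VCAN was at 6.03 and 7.65 FPKM, and EDIL3 on the side of HAPLN1 was at 1.18 and 1.17 FPKM. LOX is on chromosome Z as well, a chromosome carried once in hens and in 2 copies in males, and the labels do not give the sex of the pooled embryos. Over the 492 measured genes of chromosome Z the median log2 difference was −0.05, with 11.8% past 1.5-fold upward and 12.0% past it downward.

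HAPLN3, a second link protein, was the more abundant one in these hearts. It was at 46.2 FPKM in the vehicle pool and 50.8 FPKM in the NO pool, a log2 difference of 0.13 (0.05 to 0.21), and it was 4.41 and 8.31 times the level of HAPLN1. HAPLN2 and HAPLN4 were under 1 FPKM in both libraries. The summed level of the 4 link proteins was 57.1 FPKM in the vehicle pool and 57.0 FPKM in the NO pool, of which HAPLN1 was 18.4% and 10.7%.

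Other proteoglycan core proteins were lower or within 1.5-fold. Of 18 measured, 0 were at least 1.5-fold higher and 9 were lower, with a median of −0.50, beside 9.59% and 22.4% of all genes. CSPG5, a proteoglycan of the nervous system, was at 22.6 and 1.62 FPKM, 9.003-fold lower (a plain FPKM ratio of 13.95). PRELP, a small leucine-rich proteoglycan, was at 14.2 and 1.73 FPKM, 5.59-fold lower, and AGRN, agrin of basement membranes, was at 56.8 and 27.1 FPKM, 2.05-fold lower. The most abundant core protein, the glypican GPC4, was at 90.6 and 105 FPKM, and lumican (LUM) was at 30.04 and 43.9 FPKM. Neural markers summed to 369 and 173 FPKM, in the direction of CSPG5. Endoderm markers, markers of mesenchyme and neural crest, and epicardial markers differed in that direction as well. The part of these tissues in the values was not tested.

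The enzymes that build chondroitin and heparan sulphate chains were mostly within 1.5-fold. Of 36 measured, 1 was at least 1.5-fold higher (2.78%, beside 9.59% of all genes) and 7 were lower (19.4%, beside 22.4%), with a median of −0.21. B4GALT7, a galactosyltransferase that builds the linker between chain and core protein, was at 58.1 and 49.0 FPKM, and CHST14, a dermatan sulphotransferase, was at 25.5 and 25.1 FPKM. EXTL3, another abundant chain enzyme, was at 27.3 and 19.0 FPKM, 1.41-fold lower. XYLT2, which starts a chain, was 2.23-fold lower (8.62 and 3.32 FPKM), and CHST15, which adds a further sulphate to chondroitin, was 1.91-fold lower (3.99 and 1.61 FPKM). HS6ST3, a heparan sulphotransferase, was 3.14-fold higher from a low level (0.846 and 4.80 FPKM, a plain FPKM ratio of 5.68).

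CD44, the best known receptor for hyaluronan (ENSGALG00000007849, chromosome 5, 18248884 to 18303314), was scarcely present. It was at 0.250 FPKM (0.170 to 0.330) in the vehicle pool and 0.388 FPKM (0.306 to 0.471) in the NO pool, resting on 39 and 88 implied fragments, with overlapping intervals. It missed the limit for a measured gene and is in no count made at that limit. With no filter on low values CD44 joined the members at a log2 difference of 0.15, within 1.5-fold, and their median was 0.29. Among other receptors, the stabilins STAB1 and STAB2, scavenger receptors of endothelium, were at 4.66 and 3.02 FPKM and at 4.30 and 1.42 FPKM. LYVE1 of lymphatic endothelium was at 1.37 and 1.49 FPKM. HMMR and LAYN, of the list of hyaluronan synthesis, cleavage and binding, were not found by name, so their levels are unknown. STAB2 was 2.19-fold lower, and endothelial markers were more often higher than lower. The part of endothelium in the values of these receptors was not tested.

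FN1, fibronectin (ENSGALG00000003578, chromosome 7, 4333468 to 4382817), the fibre-forming glycoprotein on which heart precursors migrate, was the most abundant of the 10 in both libraries. It was at 180 FPKM (173 to 188) in the vehicle pool and 275 FPKM (264 to 286) in the NO pool, and it alone made up 51.7% and 67.1% of the summed level of the 9 measured members. Its log2 difference was 0.60 (0.52 to 0.69), an interval that spans the 1.5-fold limit, and with both libraries brought to the same summed FPKM it was 0.47 and no longer past it. Vitronectin (VTN), another adhesive glycoprotein, was at 33.7 and 9.30 FPKM, 3.37-fold lower. Fibronectin was 5.35 times the level of vitronectin in the vehicle pool (4.99 to 5.73) and 29.6 times in the NO pool (27.1 to 32.3). FN1 was 1.52-fold higher and VTN 3.37-fold lower, so most of this came from VTN. Against the abundant glycoprotein SPARC, fibronectin stood at 0.459 in the vehicle pool (0.435 to 0.486) and 0.540 in the NO pool (0.512 to 0.569).

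POSTN, periostin (ENSGALG00000017046, chromosome 1, 171293438 to 171327674), a matricellular protein of cushion and valve mesenchyme, was at 8.56 FPKM (8.00 to 9.13) in the vehicle pool and 11.3 FPKM (10.7 to 11.9) in the NO pool. Its log2 difference was 0.37 (0.26 to 0.48), within 1.5-fold. The markers of cushion and pharyngeal mesenchyme, which include neural crest genes, were mostly lower in the same library. The part of these tissues in the value of POSTN was not tested.

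SPP1, osteopontin (ENSGALG00000010926, chromosome 4, 45074192 to 45077215), a secreted phosphoprotein that binds integrins and CD44, differed most. It was at 50.2 FPKM (46.9 to 53.6) in the vehicle pool and 3.67 FPKM (3.07 to 4.27) in the NO pool, a plain FPKM ratio of 13.7. On the FPKM + 1 scale it was 10.97-fold lower, with a log2 difference of −3.46 (−3.66 to −3.25). Only 27 of 10824 measured genes had a lower value. Its rank went from 1355th to 8067th. PKD2 overlaps one end of SPP1 by 530 bases; PKD2 was at 7.44 and 6.01 FPKM, and the sources used here do not say whether reads were counted by strand. No listed gene overlaps the other 9 members. The bone matrix genes that follow SPP1 on chromosome 4, OC-116, IBSP and DMP1, were listed at 0 or under 1 FPKM in both libraries. Endoderm markers summed to 1319 and 342 FPKM and neural markers to 369 and 173 FPKM, in the direction of SPP1. Markers of mesenchyme and neural crest summed to 412 and 96.1 FPKM, in the same direction. Epicardial markers (81.1 and 57.1 FPKM) differed in that direction as well, and the part of these tissues was not tested.

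Other matrix glycoproteins mostly stayed within 1.5-fold. Of 28 measured, 3 were higher and 3 were lower, 10.7% each beside 9.59% and 22.4% of all genes, with a median of −0.09. With both libraries brought to the same summed FPKM the counts were 1 and 7. SPARC, a collagen-binding glycoprotein and the most abundant of them, was at 393 and 509 FPKM, nidogen 2 (NID2) of basement membranes at 82.1 and 57.4 FPKM, and MFGE8 at 57.8 and 66.5 FPKM. IGFBP7, which binds growth factors and is made by endothelium, was at 30.6 and 70.2 FPKM, 2.25-fold higher, and FNDC1 was at 1.93 and 3.73 FPKM, 1.62-fold higher. SMOC1, a calcium-binding protein that modulates BMP signals, was at 10.2 and 1.34 FPKM, 4.78-fold lower.

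In 2 families of the elastic fibre system, the fibulins and the lysyl oxidases, genes differed by 1.5-fold or more in opposite directions. The fibrillins found were within 1.5-fold. FBLN1, fibulin-1 (ENSGALG00000014233, chromosome 1, 70623970 to 70705990), which binds versican and fibronectin, was at 44.7 FPKM (43.4 to 45.9) in the vehicle pool and 16.3 FPKM (15.7 to 16.9) in the NO pool, 2.63-fold lower, with a log2 difference of −1.40 (−1.46 to −1.33). FBLN2, fibulin-2, which shares partners with it, was at 49.5 and 103.9 FPKM, 2.08-fold higher. In the vehicle pool the 2 stood close to level, at a ratio of FBLN2 to FBLN1 of 1.11 (1.07 to 1.15), and in the NO pool the ratio was 6.36 (6.11 to 6.62). FBLN5, FBLN7 and EFEMP1 were under 1 FPKM in both libraries, and EFEMP2 of this family was not found by name. Fibulin-1 made up 46.5% of the summed level of the fibulins found in the vehicle pool and 13.4% in the NO pool.

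FBN1, fibrillin-1 (ENSGALG00000004960, chromosome 10, 9669985 to 9805190), the main microfibril protein of later life, was at 8.64 FPKM (8.35 to 8.92) in the vehicle pool and 13.01 FPKM (12.7 to 13.3) in the NO pool. Its log2 difference of 0.54 (0.49 to 0.59) fell just short of 1.5-fold, and it passed that limit under 4 settings, at 0.59 with a pseudocount of 0.1, 0.65 with the median gene set to 0, 0.67 with trimmed mean scaling and 0.68 with upper quartile scaling. FBN2 was at 7.90 and 5.95 FPKM. FBN3 was by far the most abundant fibrillin, at 75.8 and 94.2 FPKM, which is 8.78 times FBN1 in the vehicle pool and 7.24 times in the NO pool. The ratio of FBN2 to FBN1 was 0.915 (0.872 to 0.960) and 0.457 (0.439 to 0.475).

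LOX, lysyl oxidase (ENSGALG00000028063, chromosome Z, 80799753 to 80812305), was at 3.13 FPKM (2.86 to 3.41) in the vehicle pool and 15.8 FPKM (15.3 to 16.3) in the NO pool. Its log2 difference of 2.02 (1.92 to 2.13) corresponds to 4.06-fold on the FPKM + 1 scale and to a plain FPKM ratio of 5.03; 92 measured genes had a higher value. LOXL1, the lysyl oxidase that in mice is needed for elastic fibre upkeep, was at 81.6 and 30.9 FPKM, 2.59-fold lower, and LOXL3 was at 6.15 and 2.35 FPKM, 2.13-fold lower. LOXL2 was at 7.52 and 7.39 FPKM. LOXL1 was 26.1 times the level of LOX in the vehicle pool (23.6 to 28.8) and 1.96 times its level in the NO pool (1.83 to 2.09). The summed level of the 5 lysyl oxidases was 98.9 and 56.7 FPKM, of which LOX was 3.17% and 27.8%. The genes flanking LOX, SRFBP1 and SNCAIP, were at 6.74 and 7.64 FPKM and at 8.87 and 15.7 FPKM. Muscle markers (2959 and 17598 FPKM in sum), endothelial markers (232 and 345 FPKM) and blood markers (270 and 3444 FPKM) differed in the direction of LOX, VCAN and FN1. Mesenchyme and neural crest markers (412 and 96.1 FPKM) and endoderm markers (1319 and 342 FPKM) differed in the direction of FBLN1 and HAPLN1. So did neural markers (369 and 173 FPKM) and epicardial markers (81.1 and 57.1 FPKM). The part of these tissues in the values was not tested.

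**Figure D3:**
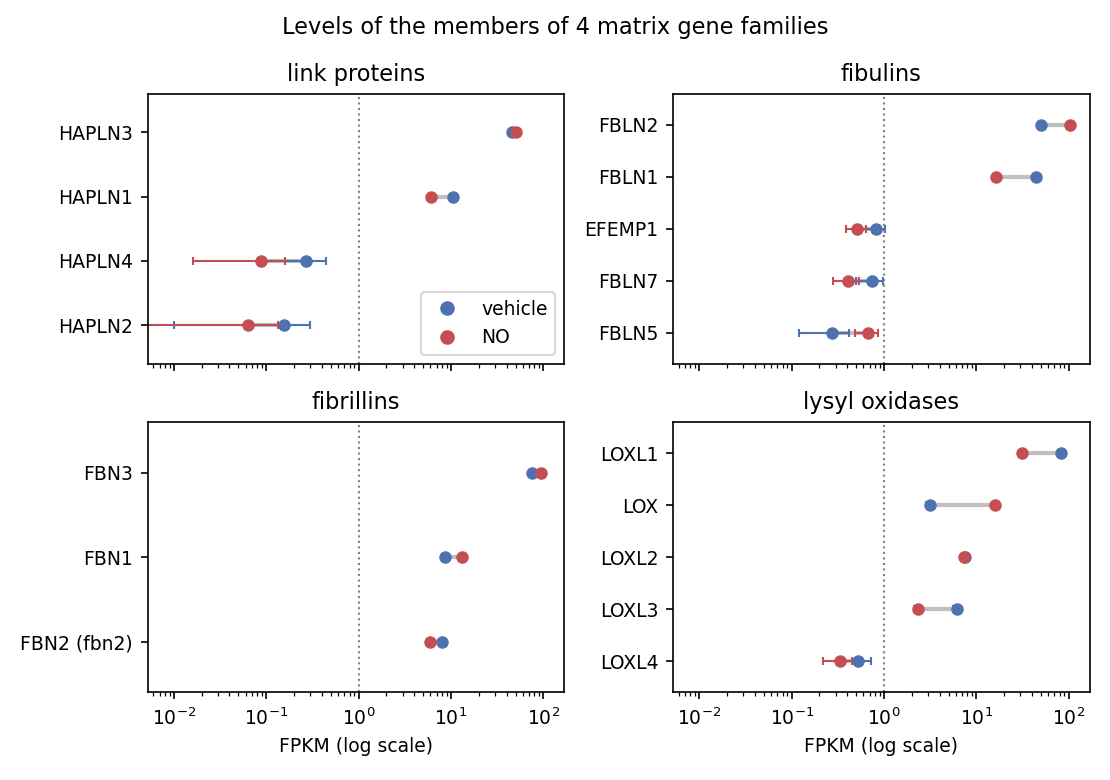
Levels of the genes of 4 matrix families as FPKM on a log scale, vehicle pool in blue and NO pool in red, with the deposited 95% interval as bars where it exceeds the point and a dotted line at 1 FPKM. From vehicle to NO, fibulin-1 is lower and fibulin-2 higher, LOX is higher and LOXL1 lower, and HAPLN3 and FBN3 lead their families in both libraries.

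Elastin (ELN), the substrate of LOX in elastic fibres, was at 8.33 and 8.47 FPKM, with a log2 difference of 0.02 (−0.13 to 0.17). Of the 19 measured genes of elastic fibres and cross-linking other than the members, 6 were at least 1.5-fold higher (31.6%, beside 9.59% of all genes) and 5 were lower (26.3%, beside 22.4%), with a median of 0.02. The 6 higher became 2 with both libraries brought to the same summed FPKM or with a pseudocount of 5. TGM2, a transglutaminase that cross-links matrix proteins, was at 21.9 and 43.3 FPKM, 1.93-fold higher. EMILIN3, a glycoprotein of the emilin family, was at 4.48 and 0.310 FPKM, 4.19-fold lower (a plain FPKM ratio of 14.5). The microfibril protein MFAP2 was at 41.9 and 23.4 FPKM, 1.76-fold lower.

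Proteases that shape this matrix differed in both directions. Of 32 measured proteases and inhibitors, 6 were at least 1.5-fold higher (18.8%, beside 9.59% of all genes) and 10 were lower (31.2%, beside 22.4%), with a median of −0.07. The counts were 3 and 13 with both libraries brought to the same summed FPKM. Among the ADAMTS enzymes that are known to cut versican in mice or humans, ADAMTS15 was at 13.2 and 2.76 FPKM, 3.78-fold lower, ADAMTS9 was at 7.86 and 5.25 FPKM, and ADAMTS1 at 15.5 and 12.8 FPKM. ADAMTS20 was at 1.09 and 2.64 FPKM, 1.74-fold higher, and ADAMTS5 was under 1 FPKM in both. Among the membrane-bound matrix metalloproteinases, MMP15 was at 234 and 132 FPKM, 1.77-fold lower, and MMP17 at 11.7 and 2.03 FPKM, 4.20-fold lower. ADAM12 was at 9.65 and 19.1 FPKM, 1.89-fold higher, and TIMP3, an inhibitor that is held in the matrix, was at 7.99 and 14.9 FPKM, 1.76-fold higher. Cathepsin B (CTSB) and MMP11, both abundant, were at 131 and 183 FPKM and at 128 and 125 FPKM.

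**Figure D4:**
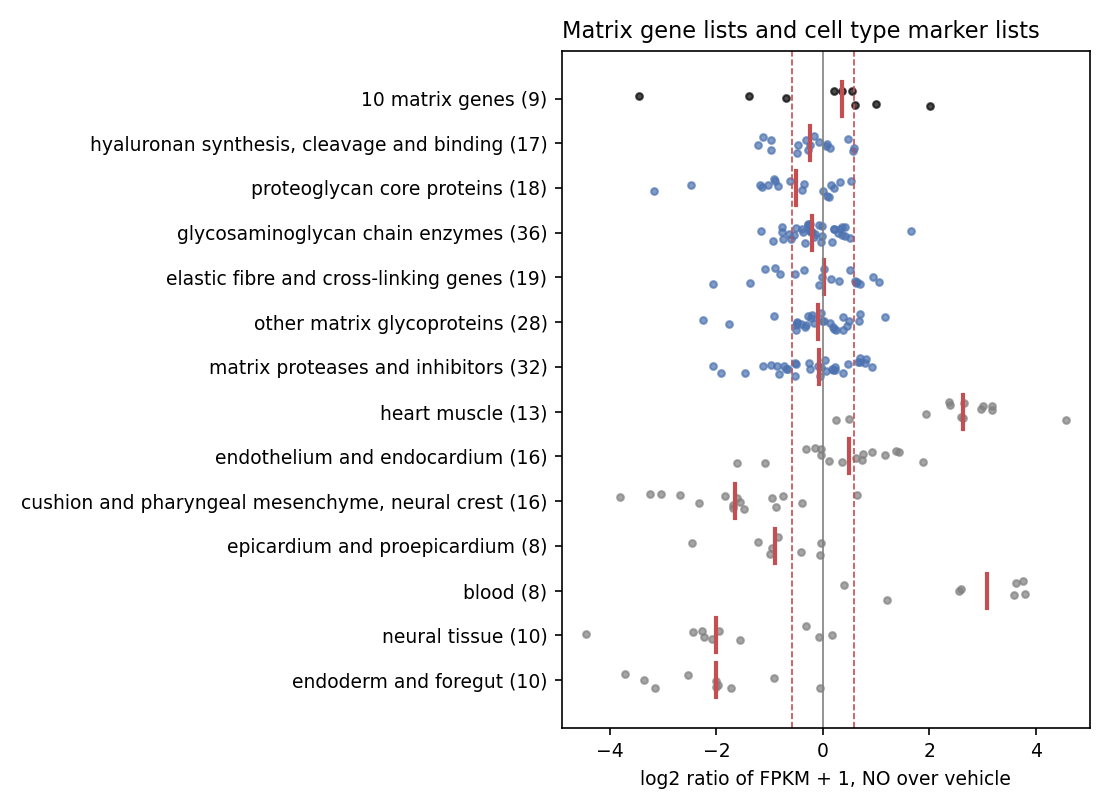
Log2 ratio of FPKM + 1 (NO over vehicle) of each measured gene in the matrix lists (blue), in the marker lists (grey) and among the 10 matrix genes (black), with the list median as a red bar, the number measured in brackets and dashed lines at 1.5-fold. The medians of the 6 matrix lists lie between −0.50 and 0.02, whereas those of the 7 marker lists run from −2.01 to 3.09.

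The order of the members by level differed between the libraries. In the vehicle pool it ran FN1, SPP1, FBLN1, VCAN, HAS2, HAPLN1, FBN1, POSTN, LOX and CD44, and the intervals of VCAN and HAS2 and those of FBN1 and POSTN overlapped. In the NO pool it ran FN1, VCAN, HAS2, FBLN1, LOX, FBN1, POSTN, HAPLN1, SPP1 and CD44, and only the intervals of the neighbours FBLN1 and LOX overlapped. VCAN and HAS2, level in the vehicle pool at a ratio of 1.01 (0.970 to 1.06), stood at 1.76 (1.71 to 1.82) in the NO pool.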

How the data were processed

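RNA was sequenced from 1 pool of 10 hearts per treatment. Per the series text and the submitters' processing notes, STAR 2.4.2a placed the reads on galGal4 (Ensembl release 81) and Cufflinks 2.2.1 quantified them; bcl2fastq and Cuffdiff are also named. The deposited values are the authors' FPKM per gene with 95% interval bounds, for 17108 genes. Here, rows were joined by identifier and rows of 1 symbol summed. The log2 ratio of FPKM + 1 was taken, and genes averaging at least 1 FPKM over the pools were counted at 1.5-fold. Interval bounds, read as 2 SD on each side, gave intervals of ratios and implied fragments; where several transcripts widen an interval, as for FN1, fragments are underestimated. Start positions were raised by 1, on which reading 10 of 10 mitochondrial coding genes had lengths divisible by 3. Genes were matched by symbol, ignoring case, then by RefSeq synonym (assembly GRCg7b, names only).

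The members and lists were chosen with earlier results of these data known. Named from each matrix list were the 3 most abundant measured genes and up to 2 with the largest difference past 1.5-fold in each direction, and marker lists are given mainly as sums; genes of the members' families, flanking genes, versican-cutting ADAMTS enzymes, other hyaluronan receptors, MFAP2 and ELN were added after their values were seen. No sequences are printed. Counting was tested on simulated libraries with known changes and counting error alone, which says nothing of the difference between pools. Python 3.11.15, pandas 2.3.3 and numpy 2.4.6 were used, with 12 alternative settings.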

Additional observations from a re-analysis of the deposited data

How the results depend on the processing

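Over 12 alternatives to the reported settings, none turned the direction of any of the 9 measured members, and none could have. Only rescaling or resetting the median can move a difference across 0. The largest such shift was 0.15 on the log2 scale, less than the smallest member difference, 0.22 for HAS2. LOX ran from 1.35 to 2.30, VCAN from 0.86 to 1.14, FBLN1 from −1.53 to −1.22 and SPP1 from −3.74 to −2.67, and of these only VCAN fell short of the limit when that was raised to 2-fold. At 2-fold, 1 member was higher, against 3, and 395 and 1115 of all genes were higher and lower, against 1038 and 2420. With a pseudocount of 5 the counts over all genes were 580 and 1427. The median of the members, 0.37, was 0.50 with upper quartile scaling (0.5025) and with trimmed mean scaling (0.4954), 0.24 with the same summed FPKM, and 0.22 for the members spelled exactly as given; that setting and the median gene set to 0 were chosen after the data were seen. Of the matrix lists, 3 with medians near 0 had medians on both sides of it: elastic fibre genes (−0.10 to 0.15), other glycoproteins (−0.20 to 0.02) and proteases (−0.17 to 0.05). Their counts ran from 1 to 7 higher and 2 to 6 lower, 1 to 5 and 2 to 7, and 0 to 7 and 4 to 13, in that order. Hyaluronan genes ran from 0 to 3 and 2 to 6, core proteins from 0 to 1 and 5 to 11, and chain enzymes from 0 to 3 and 1 to 9. These ranges include counts at 2-fold, which alone gave the 0 and 4 of proteases and the 1 lower of chain enzymes. The 2-fold limit alone also gave the 1 higher of elastic fibre genes, the 2 lower of hyaluronan genes and the 5 lower of core proteins. Of all measured genes 9.59% were higher and 22.4% lower at 1.5-fold, and 3.65% and 10.3% at 2-fold. The marker lists were not recomputed under the alternatives. No paired analysis was possible because each group is 1 library. A single library per group leaves the difference between pools of hearts unmeasured, and CD44, at 39 and 88 implied fragments, is limited by depth.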

Other observations

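Several other gene families of the matrix or its sugar supply held members on opposite sides of 0, as values chosen after they were seen and not tested. Of all measured genes 9.59% were at least 1.5-fold higher and 22.4% lower, and how many families hold such members was not counted. Some emilins and multimerins sit where elastin meets its microfibrils, and some line vessels. Among them, EMILIN2 was at 9.57 FPKM in the vehicle pool and 15.6 FPKM in the NO pool, and MMRN2 was at 9.53 and 16.2 FPKM. EMILIN3 was at 4.48 and 0.310 FPKM, and MMRN1 was at 1.99 and 0.604 FPKM. Of the enzymes that start hexosamine supply, GFPT1 was at 34.1 and 28.0 FPKM and GFPT2 at 20.6 and 31.1 FPKM, each within 1.5-fold on the FPKM + 1 scale. Of the chondroitin polymerising factors, CHPF was at 17.7 and 10.1 FPKM, 1.68-fold lower, and CHPF2 at 9.56 and 13.2 FPKM, within 1.5-fold. Endothelial markers summed to 232 and 345 FPKM in the same pools, and muscle and blood markers were higher in the NO pool as well. EMILIN2 and MMRN2 differed in that direction, and EMILIN3 and MMRN1 in the other. The part of these tissues in the values of these genes was not tested.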
